A study of Mus musculus with 66 samples.

Results

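The comparison described here is Nrf2 knockout against wild-type mouse lung at postnatal day 14 (PND14), the age at which the gas-exchange region of the mouse lung is being divided into alveoli. Its members were the 3 samples titled as knockout and the 3 titled as wild type at that age, 6 of the 66 arrays of the study, and all 45037 probe sets that are not controls, of 45101 on the array. The knockout animals were Nrf2-/- and the wild-type animals Nrf2+/+. Both genotypes came from timed matings, ate the AIN-76A diet and received no other treatment. Each of the 6 samples was RNA from the homogenate of 1 lung, so fewer cells of a type and less RNA per cell cannot be told apart. The strain, the litter and the sex of the animals are not in the labels. The knockout is not restricted to a cell type, per the genotype label. The remaining 60 arrays covered both genotypes at 10 other ages from E13.5 to PND42, in groups of 3. They enter below through the shared estimate of spread and through 2 tests of whether the difference at PND14 departed from the other ages.

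Nrf2, encoded by Nfe2l2, is a transcription factor of the cap'n'collar family. Under basal conditions Keap1 and the ubiquitin ligase scaffold Cul3 mark it for degradation. Oxidants and electrophiles stop this, and Nrf2 then pairs with small Maf proteins on antioxidant response elements near genes for glutathione synthesis, thioredoxin reduction, NADPH production and detoxification. In the lung these enzymes are carried by airway and alveolar epithelium, endothelium and macrophages.

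The 6 libraries are described before the genotype comparison, because 2 wild-type libraries stood apart. All levels below are log2(signal + 16) after quantile normalization, and all differences are knockout minus wild type on that scale, which understates changes of dim genes. The mean of 19 thymocyte genes was 7.13, 7.28 and 6.99 in knockout replicates 1 to 3, against 7.32, 11.54 and 9.23 in wild-type replicates 1 to 3. Wild-type replicate 2 lay above every one of the 60 arrays at other ages, which reached 10.31 at most, and wild-type replicate 3 was second highest of the 6. Summed over the 19 genes, the linear signal was 5737, 5722 and 5300 in knockouts and 6149, 109329 and 20183 in wild type. Replicate 2 of wild type was the highest of the 6 libraries for 18 of the 19 genes. None of the 19 was at 0, and 13 of them stayed under 8 in all 3 knockouts.

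Markers of thymic epithelium were also highest in wild-type replicates 2 and 3. The mean of 8 such genes was 6.05, 6.41 and 6.82 in knockouts and 5.98, 10.05 and 8.10 in wild type. Many markers of the lung's own cells were lowest in wild-type replicate 2: of 96 genes on 7 lists of alveolar, airway, endothelial and mesenchymal markers, 86 were lowest in wild-type replicate 2, as were 36.8% of all genes. The mean of the alveolar type 1 list was 12.52, 12.58 and 12.50 in knockouts and 12.72, 11.44 and 12.63 in wild type. The surfactant gene Sftpc was at 14.69, 14.79 and 14.77 in knockouts and 14.77, 14.73 and 14.77 in wild type, so all 6 samples carried the defining transcript of alveolar type 2 cells. Other tissues also differed between libraries. The heart muscle list averaged 11.59, 12.30 and 11.80 in knockouts against 11.49, 9.42 and 10.10 in wild type. The skeletal muscle list stood at 8.72, 10.25 and 11.12 against 7.60, 7.58 and 10.09 in wild type, and the squamous oesophagus list at 7.04, 10.50 and 10.85 against 7.85, 7.85 and 10.59.

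The ratio of 3' to 5' signal of the Gapdh control probe sets, which rises as transcripts shorten, was 1.70, 2.60 and 2.57 in knockouts and 1.84, 1.18 and 2.01 in wild type, against 0.693 to 1.59 on the 60 other arrays. The same ratio for beta-actin was 1.70, 2.71 and 2.95 in knockouts and 1.87, 1.45 and 1.73 in wild type. Xist, transcribed from the inactive X chromosome, was at 13.0, 13.7 and 13.8 in knockouts but at 7.62, 7.21 and 13.6 in wild type, and the Y-linked Kdm5d at 4.23, 4.28 and 4.65 against 8.92, 9.66 and 6.66. The third wild-type library thus had high Xist together with a Kdm5d level between the others. Genotype, sex-linked signals, RNA shortening and thymus transcripts moved together in part among these 6 lungs. Results are therefore given with all 6 libraries and without wild-type replicate 2, or without wild-type replicates 2 and 3.

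**Figure D1:**
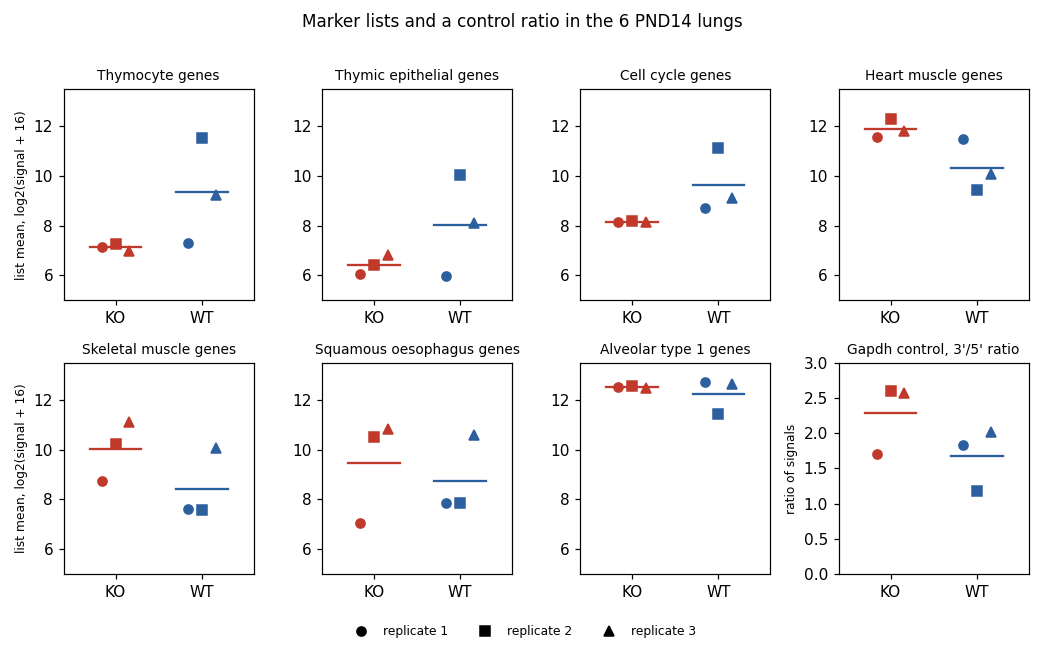
Mean level of 7 marker lists (log2(signal + 16)) and the 3' to 5' ratio of the Gapdh control in each PND14 lung, knockouts (KO) at the left and wild type (WT) at the right, with lines at the group means. Wild-type replicate 2 (square) is highest for the thymocyte, thymic epithelial and cell cycle lists (11.54, 10.05 and 11.13) and lowest for the alveolar type 1 list (11.44) and the Gapdh ratio (1.18).

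Nfe2l2 itself was low in every knockout. Its brighter probe set stood at 5.47, 4.93 and 4.52 in knockouts, against 11.97, 11.23 and 11.80 in wild type. The genotypes did not overlap, and all 6 libraries matched their genotype label. The difference was -6.69 ± 0.34 (SE, n = 3 per genotype, adjusted p = 1.7e-20, limma). A second, dim Nfe2l2 probe set was at 7.0, 6.04 and 6.46 in knockouts and 5.59, 6.20 and 6.13 in wild type, a difference of 0.53 ± 0.31 that did not pass (adjusted p = 0.32, limma).

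Across all genes, 3695 probe sets passed an adjusted p of 0.05 (8.20%), 1475 higher and 2220 lower in knockouts. In a fit of the 6 arrays alone, with no spread borrowed from other ages, only the brighter Nfe2l2 probe set passed, and 3523 had an unadjusted p under 0.05. With array medians subtracted in place of quantile normalization, 3877 passed and 52.6% of them were higher, against 39.9% in the counts just given, so the balance of directions depended on the scaling. With 1 probe set per gene, 1700 of 18193 genes passed (9.34%), 942 higher (5.18%) and 758 lower (4.17%). Wild-type replicate 2 was the highest or the lowest of the 6 libraries for 1502 of these 1700 genes (88.4%). Without it 185 genes passed (1.02%), 79 higher (0.434%) and 106 lower (0.583%), and without wild-type replicates 2 and 3 there were 50 (0.275%). With the Gapdh ratio as a covariate 120 genes passed (0.660%). With Xist as a covariate 1216 passed (6.68%), and with the thymocyte mean 229 did (1.26%). A set of 346 probe sets (0.768%) and 107 genes (0.588%) passed with all 6 libraries and also without each of the 6 in turn, 44 higher (0.242%) and 63 lower (0.346%). All 107 kept their sign when wild-type replicates 2 and 3 were both left out, which their selection on these same libraries made likely. Most of the 107 lost their call in that fit, which left 1 wild-type lung. Of the 107, 71 passed with the same sign when the Gapdh ratio was a covariate, and 107 did when Xist was.

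**Figure D2:**
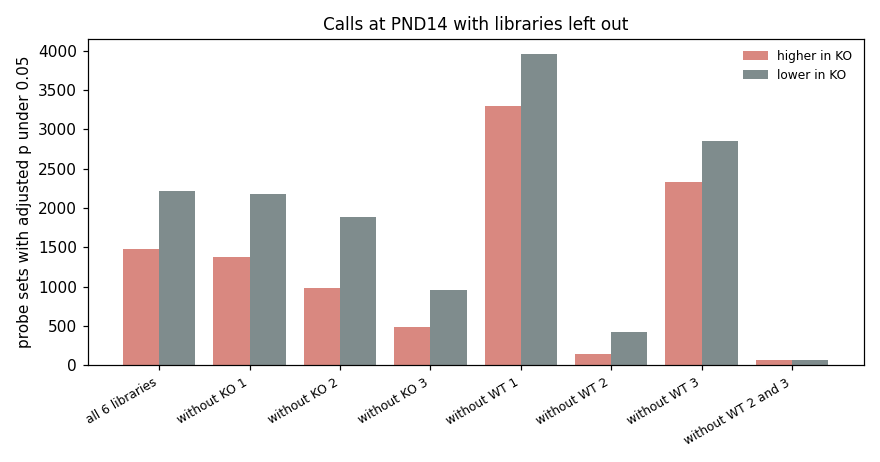
Number of probe sets with adjusted p under 0.05 at PND14, higher (left bar of each pair) and lower (right bar) in knockouts (KO), with all 6 libraries, without each library, and without wild-type (WT) replicates 2 and 3 together. The total was 3695 with all libraries, 7242 without WT replicate 1, 571 without WT replicate 2 and 131 without WT replicates 2 and 3.

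Among Nrf2's own targets, a gene from each of 3 branches of the antioxidant system fell in knockouts whichever library was left out. Gclc, which encodes the catalytic chain of glutamate-cysteine ligase in glutathione synthesis, was at 8.85, 9.29 and 8.89 in knockouts and 9.68, 9.41 and 9.60 in wild type. Txnrd1, the cytosolic thioredoxin reductase, was at 9.70, 9.34 and 9.53 in knockouts and 10.16, 10.47 and 10.15 in wild type. Me1, the cytosolic malic enzyme that makes NADPH, was at 8.13, 8.23 and 8.21 in knockouts and 8.90, 8.44 and 8.89 in wild type. For each of the 3, every knockout lay below every wild-type lung, a pattern seen in 5.42% of all genes. The differences were -0.55 ± 0.13 for Gclc (SE, n = 3 per genotype, adjusted p = 0.0047, limma), -0.74 ± 0.13 for Txnrd1 (adjusted p = 0.00025) and -0.55 ± 0.15 for Me1 (adjusted p = 0.014). Without wild-type replicate 2 they were -0.63, -0.63 and -0.70, each with an adjusted p of 0.012. With wild-type replicates 2 and 3 both left out, all 3 genes stayed lower in knockouts but lost their calls. That fit left 1 wild-type lung. With the Gapdh ratio as a covariate, Gclc passed (-0.60, adjusted p = 0.037) while Txnrd1 (-0.52, adjusted p = 0.060) and Me1 (-0.50, adjusted p = 0.17) did not. The other probe sets of these genes, 1 for Gclc, 2 for Txnrd1 and 1 for Me1, did not pass.

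The promoters of Me1 and Txnrd1 are shown because both genes fell and both hold a match to the core of the antioxidant response element, TGACNNNGC on either strand, in a RefSeq window of 250 bases before to 50 bases after the start (GRCm38.p6). Me1 lies on the minus strand and the window shown, 1 of its 2, is chr9:86695865-86696164. Txnrd1 lies on the plus strand and the window, 1 of its 3, is chr10:82858956-82859255. Capitals mark the match, which begins 6 bases before the start in Me1 and 92 bases before it in Txnrd1, where it reads on the opposite strand.
Me1: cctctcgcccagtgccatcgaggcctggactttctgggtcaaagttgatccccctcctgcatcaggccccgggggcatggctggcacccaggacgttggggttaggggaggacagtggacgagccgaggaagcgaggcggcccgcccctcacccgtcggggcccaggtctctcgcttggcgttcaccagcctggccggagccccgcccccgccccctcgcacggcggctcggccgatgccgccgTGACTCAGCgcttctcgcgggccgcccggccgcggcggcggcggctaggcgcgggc
Txnrd1: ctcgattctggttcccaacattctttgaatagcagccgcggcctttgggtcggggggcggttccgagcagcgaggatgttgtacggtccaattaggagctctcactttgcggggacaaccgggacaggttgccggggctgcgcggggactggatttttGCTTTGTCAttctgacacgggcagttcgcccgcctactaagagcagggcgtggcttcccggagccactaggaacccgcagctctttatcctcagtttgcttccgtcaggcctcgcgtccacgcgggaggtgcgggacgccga
Of all 32851 promoter windows, 12.4% held this motif, as did 14.0% of the 27025 genes with a window. Among the 63 genes that fell whichever library was left out, 51 had a window and 11 of those held the motif. Among the 44 that rose, 40 had a window and 3 held it. A match is a run of letters and does not show binding.

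No other member of the antioxidant lists passed whichever library was left out, although some had larger differences. The 7 lists of glutathione S-transferases, glutathione synthesis, thioredoxins, NADPH enzymes, phase 1 and 2 detoxification, heme and iron handling, and peroxidases held 90 measured genes. Of these, 3 rose and 5 fell, against 5.18% higher and 4.17% lower of all genes, and their median difference was 0.16, against 0.07 over all genes. Without wild-type replicate 2, none rose and 3 fell (Gclc, Txnrd1 and Me1), against 0.434% higher and 0.583% lower of all genes, with a median of 0.02 against 0.03 over all genes.

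The 3 that rose and lost the call without that library were the glutathione S-transferase Gsta2, the microsomal transferase Mgst3 and the thioredoxin reductase Txnrd3. Gsta2 was at 8.94, 9.55 and 9.64 in knockouts and 8.72, 7.39 and 8.74 in wild type (1.10, adjusted p = 0.0099, limma). The lowest wild-type value of Gsta2 was again replicate 2, and without it the difference was 0.65 (adjusted p = 0.32). The 2 further falls, of the mitochondrial malic enzyme Me2 (-0.75, adjusted p = 0.011) and the peroxiredoxin Prdx2 (-0.33, adjusted p = 0.027), overlapped between genotypes and passed in 3 of the 6 fits that left out a library. Cul3, of the Keap1 ubiquitin ligase, fell by 0.36 (adjusted p = 0.020) but was at -0.13 without wild-type replicate 2.

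Several well-known Nrf2 targets did not pass at PND14. Nqo1, the quinone reductase, was at 7.15, 6.96 and 7.72 in knockouts and 7.49, 7.62 and 7.55 in wild type (-0.28 ± 0.21, adjusted p = 0.46, limma). Gpx2, an epithelial glutathione peroxidase, was at 6.18, 7.35 and 7.49 in knockouts and 8.49, 7.43 and 8.49 in wild type (-1.13 ± 0.43, adjusted p = 0.093). Both genes overlapped between genotypes, Gpx2 through wild-type replicate 2. Gstm1 stood at -0.31 (adjusted p = 0.41), the glutathione synthesis subunit Gclm at -0.31 (adjusted p = 0.17), the sulfiredoxin Srxn1 at -0.28 (adjusted p = 0.52) and heme oxygenase Hmox1 at -0.22 (adjusted p = 0.57). Of 22 detoxification enzymes none passed, with 3 above and 1 below wild type in all knockouts, against 10.8% above and 5.42% below of all genes.

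**Figure D3:**
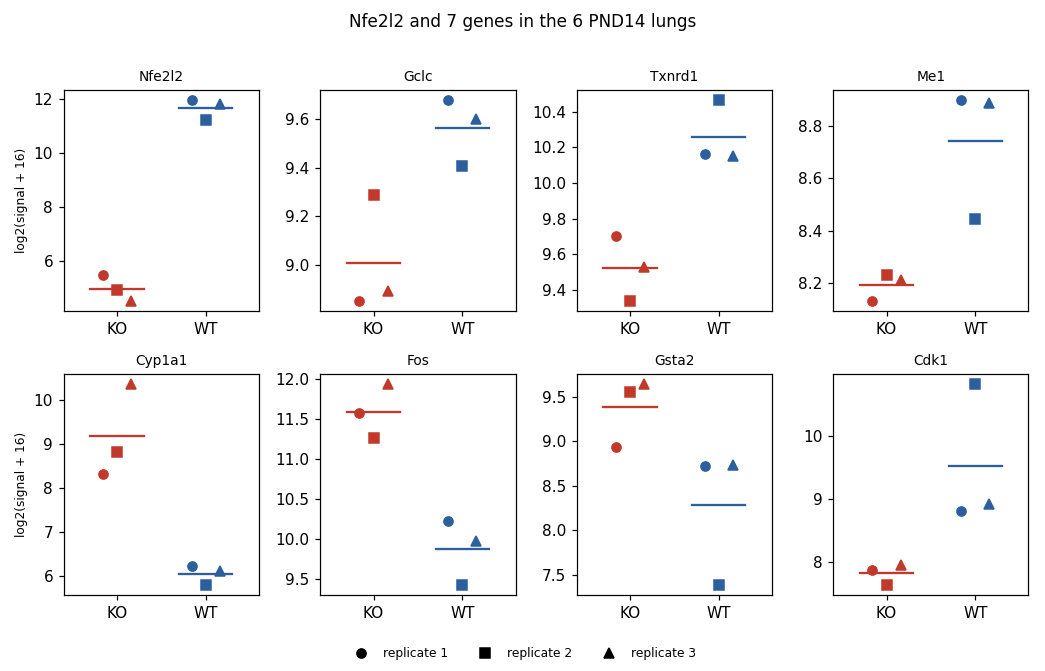
Level of 8 genes (log2(signal + 16)) in each PND14 lung, knockouts (KO) left and wild type (WT) right, with lines at the group means and a separate vertical scale for each gene. Nfe2l2, Gclc, Txnrd1, Me1 and Cdk1 were lower and Cyp1a1, Fos and Gsta2 higher in all 3 knockouts. Wild-type replicate 2 (square) is the extreme library for Gsta2 (7.39) and Cdk1 (10.84), and also for Txnrd1, Cyp1a1 and Fos.

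Among named genes that did not overlap between genotypes, the largest rise was that of Cyp1a1. This cytochrome P450 is known as the classic target of the aryl hydrocarbon receptor. It was at 8.32, 8.83 and 10.36 in knockouts and 6.23, 5.81 and 6.13 in wild type. Knockouts were all higher, by 3.12 ± 0.41 (SE, n = 3 per genotype, adjusted p = 1.2e-06, limma), and by 2.99 without wild-type replicate 2 and 2.94 without wild-type replicates 2 and 3. Its promoter is shown because the receptor's core motif, GCGTG on either strand, stood once in the window, beginning 54 bases before the start (plus strand, chr9:57697363-57697662, GRCm38.p6, capitals mark the motif).
Cyp1a1: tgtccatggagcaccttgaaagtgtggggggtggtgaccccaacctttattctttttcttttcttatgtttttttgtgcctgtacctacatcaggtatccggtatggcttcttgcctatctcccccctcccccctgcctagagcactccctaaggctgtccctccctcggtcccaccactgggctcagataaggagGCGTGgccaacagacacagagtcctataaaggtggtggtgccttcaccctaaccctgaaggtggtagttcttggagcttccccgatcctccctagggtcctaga
The motif stood in 32.4% of all windows. Of 11 lung P450 genes measured, Cyp1a1 and Cyp2s1 rose, against 5.18% higher of all genes. Without wild-type replicate 2, Cyp1a1 alone passed, against 0.434% higher of all genes, and Cyp2s1 was at 0.25.

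By the naming rule, the 15 largest rises were Cyp1a1, the zinc finger gene Zfp979, the sulfate transporter Slc13a4, the adipose hormone resistin (Retn), the metallothionein Mt3, the sulfotransferase Sult1d1, the lipid droplet gene Fitm1, the cardiac myosin-binding protein Mybpc3, the sarcoglycan Sgca, the muscle chaperone Hspb7, the cilium gene Cfap61, Ms4a4d, the transcription factor Batf2, the melanocyte gene Mlana and the cardiac protease Corin. Of these, 6 passed whichever library was left out: Cyp1a1, Zfp979, Slc13a4, Mt3, Cfap61 and Ms4a4d. Zfp979 was at 8.86, 8.64 and 8.51 in knockouts and 7.10, 5.32 and 4.32 in wild type (3.09 ± 0.34, adjusted p = 2.7e-08, limma). Slc13a4 was at 7.76, 6.32 and 7.44 in knockouts and 4.38, 4.30 and 4.70 in wild type (2.72 ± 0.43, adjusted p = 3.9e-05). In both genes the knockouts lay apart from wild type. Mt3 was at 7.31, 6.70 and 7.63 in knockouts and 4.75, 5.0 and 5.17 in wild type (2.24 ± 0.41, adjusted p = 0.00036). Mybpc3, Sgca, Hspb7 and Corin were lowest in wild-type replicates 2 and 3, as the heart muscle list was, and the part of heart tissue in these differences was not tested. Mybpc3, at 9.17, 9.51 and 9.17 in knockouts and 8.19, 6.60 and 6.80 in wild type, lost its call without wild-type replicate 2 (adjusted p = 0.30).

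The 15 largest falls were Nfe2l2, the recombinase genes Rag1 and Rag2, the co-receptor chain Cd8b1, the chemokine receptor Ccr9 and its ligand Ccl25, the transporter Slc16a5, Tbata of thymic stroma, the centromere protector Sgo1, the surface antigen Psca, the keratin Krt17, Skint10, the T-lineage chromatin organiser Satb1, Wfdc18 and Themis, which acts in thymocyte selection. Only Nfe2l2 and Sgo1 passed whichever library was left out. Rag1 was at 6.97, 7.27 and 6.06 in knockouts and 8.49, 14.19 and 11.93 in wild type, in the order of the thymocyte list. Its difference of -4.77 ± 1.19 (adjusted p = 0.0079, limma) was -3.44 without wild-type replicate 2 (adjusted p = 0.20) and -1.72 without replicates 2 and 3 (adjusted p = 0.84). Of the 19 thymocyte genes 11 fell and none rose, against 4.17% lower of all genes, with a median of -2.17 against 0.07 over all genes. With the Gapdh ratio as a covariate none passed (median -1.41). Without wild-type replicate 2 none passed (median -1.01), and without wild-type replicates 2 and 3 none passed (median -0.27). Of the 8 thymic epithelial genes, Ccl25, Prss16 and Tbata fell, and none passed without wild-type replicate 2. Psca followed another order, at 4.50, 4.74 and 4.46 in knockouts and 7.79, 7.34 and 7.17 in wild type (-2.86 ± 0.80, adjusted p = 0.019). It was -2.91 without wild-type replicate 2 (adjusted p = 0.10).

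Most cell cycle genes were lower in knockouts, and their mean, like that of the thymus transcripts, was highest in wild-type replicates 2 and 3. Of 20 measured, 17 fell, against 4.17% of all genes, and none rose, among them the proliferation marker Mki67, topoisomerase Top2a, the mitotic kinase Cdk1 and the replication clamp Pcna. The list mean was 8.13, 8.18 and 8.15 in knockouts and 8.69, 11.13 and 9.12 in wild type. Wild-type replicate 2 was highest for all 20 genes, and wild-type replicate 1 exceeded all 3 knockouts for 17. The share of all genes with either pattern was not counted, and the part of thymus tissue in these differences was not tested. The median difference was -1.56 with all libraries, -0.82 without wild-type replicate 2 and -0.63 without wild-type replicates 2 and 3, when none passed. Top2a and Cdk1 passed whichever library was left out. Cdk1 was at 7.87, 7.63 and 7.94 in knockouts and 8.81, 10.84 and 8.92 in wild type, a difference of -1.71 ± 0.30 (adjusted p = 0.00023, limma) that was -1.05 without wild-type replicate 2 (adjusted p = 0.035). With the Gapdh ratio as a covariate none of the 20 passed (median -0.996), Top2a having an adjusted p of 0.070 and Cdk1 of 0.068.

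**Figure D4:**
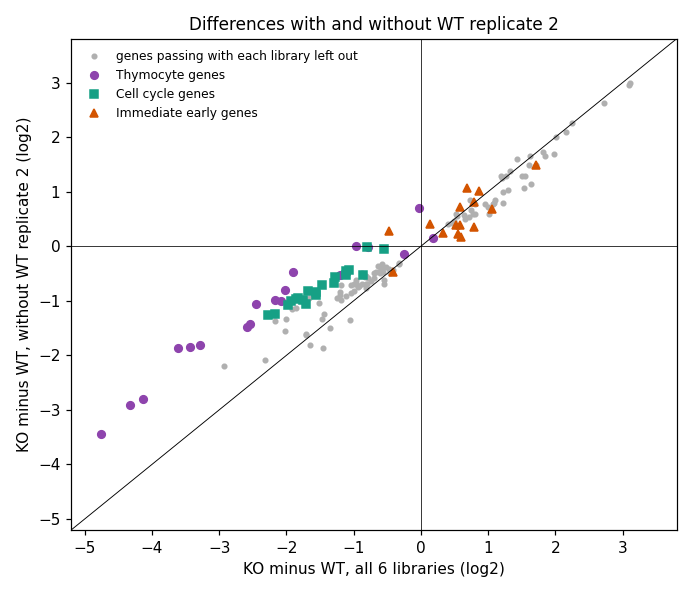
Knockout (KO) minus wild-type (WT) difference (log2) of genes with all 6 libraries (horizontal) and without WT replicate 2 (vertical), for the genes that passed whichever library was left out (grey, Nfe2l2 not drawn) and for 3 lists. Points on the diagonal did not move, and most thymocyte and cell cycle genes lie above it, with medians of -2.17 and -1.56 on the horizontal axis and -1.01 and -0.82 on the vertical.

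Immediate early genes, which are transcribed within minutes of growth factor, stress or injury signals, included several that were higher in knockouts. Of 15 measured, 7 rose, against 5.18% of all genes, and none fell (Fos, Jun, Ier2, Ier3, Dusp1, Nr4a1 and Zfp36), and all 3 knockouts lay above wild type for 10 of 15, against 10.8% of all genes. The median difference was 0.59 against 0.07 over all genes. Without wild-type replicate 2 the median was 0.39 and 4 passed, Fos, Nr4a1, Zfp36 and Egr1, and with wild-type replicates 2 and 3 left out it was 0.54 and none passed. Fos was at 11.57, 11.26 and 11.94 in knockouts and 10.22, 9.42 and 9.97 in wild type. Its difference of 1.72 ± 0.27 (SE, n = 3 per genotype, adjusted p = 3.1e-05, limma) was 1.49 without wild-type replicate 2 (adjusted p = 0.0027) and 1.51 with the Gapdh ratio as a covariate (adjusted p = 0.0063). Fos was the 1 gene of the list that passed with the Gapdh ratio as a covariate, when the list median was 0.43, and the 1 that passed whichever library was left out.

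Other genes of rapid onset, singled out after their values were seen, were also higher. Ccn1, which encodes a matrix protein, was at 12.15, 12.21 and 12.75 in knockouts and 11.35, 9.76 and 11.10 in wild type (1.63 ± 0.22, adjusted p = 2.5e-06, limma), with all 3 of its other probe sets passing in the same direction. Socs3, a feedback inhibitor of cytokine signalling, was at 9.87, 10.41 and 10.27 in knockouts and 9.44, 9.31 and 9.37 in wild type (0.81 ± 0.15, adjusted p = 0.00043). Neither gene overlapped between genotypes, and both passed whichever library was left out.

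Further lists held calls that did not outlast the loss of wild-type replicate 2, and their counts stand beside 5.18% higher and 4.17% lower of all genes. Of 15 clock genes 4 rose (Per3, Cry2, Nr1d2 and Tef) and Arntl fell, of 13 hypoxia-response genes 3 rose (Bnip3, Slc2a1 and Ndrg1), and of 16 chaperone genes 3 rose and 2 fell. Of 14 ciliated cell genes 6 rose, including the ciliary master regulator Foxj1 (0.86, adjusted p = 0.046, limma). Of 20 proteasome subunits 6 fell, but with array medians subtracted none did. None of these passed without wild-type replicate 2. Of the 42 lists, 25 held at least 1 call with all libraries and 8 did without that library. No call was made among the elastic fibre and collagen genes of septation (15 genes, median 0.05) or the surfactant list (15 genes, median 0.32), nor among endothelial genes (16 genes, median 0.22), in this design of 3 against 3. These medians were -0.27, -0.00040 and -0.17 without wild-type replicate 2, so their sign depended on that library.

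The genes that passed whichever library was left out included others with known roles, named here after their values were seen. Snhg12, a host of small nucleolar RNAs, was at 6.17, 5.89 and 6.37 in knockouts and 8.26, 8.94 and 8.20 in wild type (-2.32 ± 0.33, adjusted p = 8.8e-06, limma). Malat1, a long RNA kept in the nucleus, was at 11.93, 12.71 and 10.71 in knockouts and 13.29, 13.65 and 13.52 in wild type (-1.71 ± 0.24), with 5 of its 6 other probe sets passing in the same direction. Both lay below wild type in every knockout. Gpd2, the mitochondrial glycerol phosphate dehydrogenase (-1.04 ± 0.13, with 2 of 3 other probe sets), Niban1 (-1.06 ± 0.23), the chaperones Dnaja1 (-0.48 ± 0.08) and Manf (-0.47 ± 0.09) and the lipase family gene Lipo3 (-1.65 ± 0.19) also fell. Tmem14c, a mitochondrial protein of heme synthesis, was at 11.19, 10.74 and 10.72 in knockouts and 9.40, 9.31 and 9.05 in wild type (1.62 ± 0.15, adjusted p = 3e-10). Stom, a membrane scaffold protein (1.10 ± 0.14, with 2 of 5 other probe sets), Sh2d4a (1.53 ± 0.21) and the cold-inducible RNA-binding protein Cirbp (0.78 ± 0.12) rose. Tmem14c, Stom and Lipo3 also passed with 1 wild-type lung left (adjusted p = 6.1e-05, 0.00066 and 2.5e-05).

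Genes near Nfe2l2 on its chromosome were listed apart. Of the 100 measured genes nearest to it in the GRCm38.p6 order, 14 passed (14.0%, against 9.34% of all genes), 10 higher and 4 lower. Without wild-type replicate 2, 3 of the 100 passed, against 1.02% of all genes. Cwc22, a splicing factor 17 measured genes away, was at 8.26, 8.17 and 8.48 in knockouts and 9.08, 9.61 and 8.99 in wild type (-0.93 ± 0.15, adjusted p = 3.9e-05, limma). Zc3h15, 31 genes away, was at 10.23, 10.40 and 9.37 in knockouts and 10.46, 11.24 and 10.91 in wild type (-0.87 ± 0.14, adjusted p = 3.9e-05). These 2 did not overlap between genotypes and passed whichever library was left out. Rbm45, singled out after its values were seen, was at 10.86, 10.93 and 10.86 in knockouts and 10.16, 10.34 and 10.28 in wild type, but its difference of 0.62 ± 0.25 did not pass (adjusted p = 0.11).

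Whether the difference at PND14 departed from that at PND42, the only later age, was tested in the same model. The 2 ages share no sample. It did for 544 probe sets (190 higher and 354 lower, 1.21%) and 251 genes (1.38%). Antioxidant genes were part of this. Of the 90 genes of the 7 lists, 13 fell and none rose at PND42, where 4.79% of all genes passed, 3.20% higher and 1.59% lower. Gclc was at -0.55 at PND14 and -1.29 at PND42, the PND14 difference being closer to 0 by 0.74 ± 0.18 (adjusted p = 0.026, limma). The aldehyde oxidase Aox1 was at -0.32 against -1.70 (1.38 ± 0.36, adjusted p = 0.039) and the carboxylesterases Ces1f at 0.16 against -2.83 (2.99 ± 0.48, adjusted p = 0.00013) and Ces1g at -0.49 against -2.41 (1.92 ± 0.48, adjusted p = 0.029). Without wild-type replicate 2 the test held for Ces1f (2.81, adjusted p = 0.0011) and not for Gclc (adjusted p = 0.11), Aox1 or Ces1g. For Me1 (-0.55 against -1.25, adjusted p = 0.083) and Txnrd1 (-0.74 against -1.03, adjusted p = 0.52) the difference between ages did not pass.

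Genes outside these lists also differed between the 2 ages. Gdpd3, a lysophospholipase D, was at 0.48 at PND14 and -5.16 at PND42 (5.64 ± 0.56, adjusted p = 1.9e-09, limma), Slc13a4 at 2.72 and -0.17 (2.88 ± 0.61), and the Wnt inhibitor Wif1 at -0.21 and -2.51 (2.30 ± 0.39). Fos was higher in knockouts at PND14 (1.72) and lower at PND42 (-1.17), a difference of 2.88 ± 0.38 (adjusted p = 4.4e-06) that was 2.66 without wild-type replicate 2. In the opposite direction lay the RNA exosome gene Exosc1 (-3.48 ± 0.84), Skint10 (-3.10 ± 0.84), the melanocortin receptor accessory gene Mrap2 (-2.89 ± 0.62), the sugar transporter Slc45a1 (-2.58 ± 0.41) and Sgo1 (-2.37 ± 0.54). The test held without wild-type replicate 2 for Mrap2 and Slc45a1, but not for Exosc1 (-3.34, adjusted p = 0.065, limma), Skint10 (-2.01, adjusted p = 0.31) or Sgo1 (-1.65, adjusted p = 0.12). Mrap2 and Slc45a1 differed at PND42 (2.11 and 1.93) and did not pass at PND14. Calls at both ages coincided in direction for 153 genes, which is 9.0% of the 1700 at PND14 and 17.5% of the 872 at PND42, and were opposite for 16. Of the 107 genes that passed whichever PND14 library was left out, 41 passed at PND42 in the same direction, among them Gclc, Txnrd1, Me1, Cyp1a1, Malat1, Stom and Mt3, and 1, Fos, in the opposite direction.

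Set against the mean difference of the other 10 ages, the PND14 difference departed for 3777 probe sets (8.39%) and 1845 genes (10.1%), and for 350 probe sets without wild-type replicate 2. The largest departures downwards were Rag1, Cd8b1, Ccr9, Ccl25 and Cd8a, all of the thymus lists. Upwards they were Lce3f, a gene of the cornified layer, the squamous metallothionein Mt4, Cyp1a1 (2.92 ± 0.43, adjusted p = 2.9e-05, limma), Zfp979 (2.82 ± 0.35) and Slc13a4 (2.73 ± 0.45). Mt4 was at 6.0, 11.08 and 11.90 in knockouts and 4.56, 6.45 and 8.50 in wild type, with the 2 high knockouts also highest for skeletal muscle markers. The squamous oesophagus list averaged 10.50 and 10.85 in those 2 knockouts, but also 10.59 in wild-type replicate 3. The level of Mt4 overlapped between genotypes.

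Cyp1a1 also passed higher in knockouts at PND2 (1.52) and PND42 (1.63) and lower at PND0 (-1.96). Me1 passed lower at E18.5, PND0, PND1, PND3 and PND42 as well as PND14. Fos changed sign from age to age, passing at -1.67 at E18.5, 1.68 at PND0, -1.05 at PND1, 1.72 at PND14 and -1.17 at PND42.

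**Figure D5:**
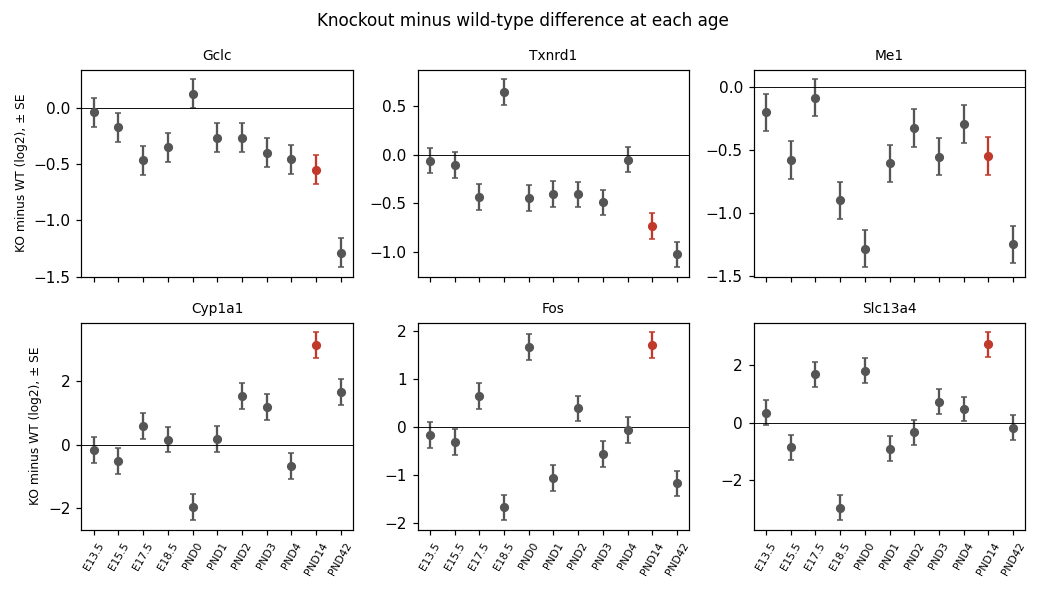
Knockout minus wild-type difference (log2) ± SE of 6 genes at each age, in the order of age, with PND14 in red (n = 3 per genotype and age). At PND14 Gclc, Txnrd1 and Me1 lie at -0.55, -0.74 and -0.55, and Cyp1a1, Fos and Slc13a4 at 3.12, 1.72 and 2.72.

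Lastly, the libraries were placed on a scale of lung maturation set by wild-type PND0 (0) and wild-type PND42 (1), averaged over 2892 probe sets that differed between those ages by at least 1. Knockouts lay at 0.545, 0.554 and 0.543, and wild-type lungs at 0.514, 0.361 and 0.528. All 3 knockouts were above all 3 wild-type lungs, 0.547 ± 0.00561 against 0.468 ± 0.0925 (SD, n = 3 each), with an exact two-sided permutation p of 0.1, the smallest that 3 against 3 can give. The difference of 0.0796 was 0.0263 without wild-type replicate 2. Over the 508 probe sets that differed by at least 2, it was 0.00737 (exact permutation p = 0.8). On a scale set by knockout PND0 and PND42 instead, over 5185 probe sets, it was 0.126 (exact permutation p = 0.1).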

How the data were processed

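RNA from 66 mouse lung samples was measured on 1 Affymetrix array each, and groups came from the sample titles. The authors' deposited values were linear intensities, 1 signal per probe set. The submitters' processing notes name GCOS. Its version and algorithm are not given in the sources used here, and scanner files were not used here. The 6 PND14 arrays shared a trimmed mean of 500, their medians ran from 85.2 to 106.6, and the number of arrays limits the precision. Trimmed means were lower on wild-type PND1 to PND3 arrays, such as 253 for PND1 replicate 1. Wild-type PND4 replicate 1 was at 205. Values were quantile normalized over all 66 arrays, 16 was added and log2 taken. A limma model (version 3.58.1, R 4.3.3) with 1 mean for each of 22 groups and an intensity trend was fitted to all 66 arrays, p-values being two-sided and adjusted by the Benjamini-Hochberg method over 45037 probe sets (threshold 0.05). SEs use 1 spread pooled over the 22 groups, which can understate the spread among these 6 lungs. The model was tested on simulated data with independent normal noise. No simulated library stood apart, so that test does not cover a library like wild-type replicate 2.

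Of the probe sets, 34945 had 1 symbol, 932 several and 9160 none. Each of 18193 genes was represented by its probe set of highest average level. Named genes were the Nfe2l2 probe sets, members of 42 lists, called neighbours of Nfe2l2, the 15 largest rises and falls among called genes that did not overlap between genotypes and kept their sign without each library, and the 5 largest each way of the 2 contrasts between ages. Loci with predicted or clone names, and sex-linked genes such as Xist and Kdm5d, were not eligible. The lists, the rule and the comparison itself were chosen with earlier results of these data known. Genes described as passing whichever library was left out were chosen after their values were seen. Same-numbered knockout and wild-type libraries had deviations correlated at 0.05 to 0.06, so the numbers were not taken to pair the samples. Promoters are from RefSeq (GRCm38.p6), and Python 3.11.15 with matplotlib 3.10.9 made the figures. The alternatives included other scalings, pseudocounts, filters and variance settings, covariates, and leaving out libraries.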

Additional observations from a re-analysis of the deposited data

Results flagged for a closer look

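For 26 of the genes named, the knockout difference at PND14 departed from that at PND42 in the test of the difference itself (adjusted p under 0.05, limma), and 13 of the 26 still did without wild-type PND14 replicate 2. Values are the PND14 difference minus the PND42 difference on the log2 scale, and the causes were not tested.

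The first 13 were Gdpd3 (5.64), Ces1f (2.99), Slc13a4 (2.88), Wif1 (2.30), Tmem14c (0.95), Lipo3 (-1.83), Psmb7 (-2.34), Mrap2 (-2.89) and Slc45a1 (-2.58), with Fos (2.88), Egr1 (1.63) and Ccn1 (1.63) among rapidly induced genes and the interleukin gene Il1b (2.09). Psmb7, a proteasome subunit, stood at -0.85 at PND14 and 1.49 at PND42.

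The other 13, which no longer passed without that library, were Gclc (0.74), Aox1 (1.38), Ces1g (1.92), Ier2 (0.79), Dusp1 (1.41), Zfp979 (1.96) and Ms4a4d (1.89), all closer to a rise at PND14, and Hspa8 (-0.42), Dnaja1 (-0.47), Sgo1 (-2.37), Skint10 (-3.10), Exosc1 (-3.48) and Snhg12 (-1.88), all lower at PND14.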

How the results depend on the processing

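The count of 3695 probe sets was 1 in a fit of the 6 PND14 arrays alone (3523 at an unadjusted p under 0.05), 1812 with 1 probe set per gene, 370 with the Gapdh ratio as a covariate, and, in alternatives chosen after seeing the data, 690 with the thymocyte mean as a covariate and 131 without wild-type replicates 2 and 3. Leaving out each library gave 571 (without wild-type replicate 2) to 7242 (without wild-type replicate 1), with 1440 without knockout replicate 3. The contrast with PND42 (544) gave 310 on the 42 arrays without PND1 to PND4, 284 with 1 probe set per gene, 353 with the thymocyte covariate and 170 without wild-type replicates 2 and 3, and 285 to 1973 with libraries left out, again without wild-type replicates 2 and 1, and 1205 without wild-type replicate 3. The contrast with the other 10 ages (3777) gave 2081, 192 with the Gapdh ratio, 523 and 88 under the same settings and 350 to 7113 with libraries left out, 1503 without knockout replicate 3. It had no value on the 6 or 42 arrays, nor did the contrast with PND42 on the 6. With deposited values and no normalization 52.6% of its calls were higher, against 41.5%. The 1700 genes given earlier were adjusted over all 45037 probe sets. In the separate fit with 1 probe set per gene counted here, 18193 were tested in place of 45037. The shares passing were then 9.96% at PND14, 1.56% against PND42 and 11.4% against the other 10 ages. Over all probe sets they were 8.20%, 1.21% and 8.39%. The replicate number as a block gave 3306, 386 and 3455, and 107 of 114 named genes kept their side of the threshold. Each PND14 library correlated best with its own number, a hint from the data and not the design.

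The maturation difference of 0.0796 ran from 0.0263 to 0.110 with libraries left out and was 0.00737 at a difference of at least 2 and 0.126 on the scale set by knockout lungs. Nfe2l2 passed under all alternatives run. Of the 114 other genes, 95 lost their call in the fit of the 6 PND14 arrays alone. Without wild-type replicate 2, 62 lost it, and with the Gapdh ratio 67 did. Signs turned, with the causes not tested, for Ces1f (-0.016 with array weights, -0.24 without wild-type replicates 2 and 3, -0.17 with the thymocyte covariate, -0.28 to 0.43 with libraries left out), Wif1 (-0.73 to 0.10 with libraries left out), Aox3 (-0.55 to 0.084 likewise), Sftpc (-0.01 with all libraries, 0.24 with no normalization and with trimmed means, 0.32 with array medians subtracted, 0.039 with the thymocyte covariate, -0.028 to 0.021 with libraries left out), Dntt (0.29 without wild-type replicates 2 and 3), and Nqo1 (0.065), Tbata (0.082) and Prss16 (0.44) with the thymocyte covariate.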

Other observations

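The adipose list ranked the libraries in another order. Its mean was 9.90, 8.04 and 7.54 in knockouts and 8.20, 9.32 and 7.08 in wild type, with knockout replicate 1 and wild-type replicate 2 highest, against a range of 5.23 to 8.48 on the 60 arrays at other ages. Retn, which is on that list, was at 10.03, 8.45 and 7.92 in knockouts and 6.88, 7.17 and 5.52 in wild type, so it did not overlap between genotypes although the list did. Its difference of 2.28 ± 0.52 (adjusted p = 0.0036, limma) was 2.60 without wild-type replicate 2 (adjusted p = 0.0097). Whether it came from fat tissue was not tested.

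The alveolar macrophage list was highest in knockout replicate 1, at 10.03, 9.43 and 9.44 in knockouts and 9.51, 9.09 and 9.45 in wild type, and none of its 13 genes passed. The interleukin gene Il1b, on the neutrophil and acute inflammation list, was at 8.59, 8.15 and 8.01 in knockouts and 7.78, 6.68 and 7.73 in wild type (0.86, adjusted p = 0.037, limma), and 0.50 without wild-type replicate 2 (adjusted p = 0.50). It was 1 of 14 genes on that list to pass.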
